A study of Mus musculus with 172 samples.

Results

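The 10 genes described here belong to the Hippo pathway, the signalling cascade that decides whether YAP and TAZ enter the nucleus. They are Amot, Amotl1, Amotl2, Nf2, Lats1, Lats2, Yap1, Wwtr1, Tead1 and Tead2, taken by symbol from the 49671 genes of the count tables, and all 10 were found under their Ensembl identifiers. Transcripts were counted by Smart-seq2, a full-length method for single cells, in single cells of the inner cell mass (ICM) of 19 mouse blastocysts from natural inter se matings of Oct4+/- mice of mixed genetic background. ICMs were freed of trophectoderm (TE), the outer epithelium, by immunosurgery, and the TE lysate gave the genotype.

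At embryonic day (E) 3.5 there were 58 control cells, 42 from 5 WT and 16 from 2 HET embryos, and 29 cells from 4 Oct4 null (MUT) embryos. At E4.5 there were 66 control cells from 2 WT and 4 HET embryos, which the authors had divided into 37 epiblast (EPI) and 29 primitive endoderm (PrE) cells from these same transcriptomes, and 19 cells from 2 MUT embryos. The null allele is constitutive, so the whole MUT embryo, and not the ICM alone, lacked an intact Oct4 gene, whereas HET controls carry the allele too. The dams were HET, and the study refers to maternal OCT4 that MUT embryos lose early. The counts of the cells of an embryo were summed, for E4.5 controls by lineage, giving 25 sums, and n below counts embryos. All E3.5 cells were on one plate and all E4.5 cells on another, so stage and plate cannot be told apart.

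Cells held between 363819 and 4644070 gene counts, with class medians from 1318327 to 1772045. Pou5f1, the Oct4 gene, stood at 297 ± 96.6 CPM in E3.5 WT/HET (SD, n = 7) and 4.30 ± 1.40 CPM in E3.5 MUT (n = 4), with an adjusted p of 3.19e-06 by edgeR, and at 0 in both E4.5 MUT sums. CPM were scaled by TMM normalization over all 25 sums. Summed over 13 TE markers, of which 4 of 10 tested were called higher in E3.5 MUT by edgeR, E3.5 MUT had 1294 to 2330 CPM and E3.5 WT/HET 272 to 1068 CPM, the highest control being HET embryo 15. E4.5 MUT had 9105 and 10220 CPM of TE markers, EPI 151 to 380 and PrE 831 to 1748. Of these markers, Fabp3 alone had a mean of 4252 CPM in E4.5 MUT, 88.2 in EPI and 985.5 in PrE. The 8 PrE markers summed to 2070 to 3366 CPM in PrE, 3.97 to 25.2 in EPI and 300.3 to 317 in E4.5 MUT, where Sox7 and Foxa2 had no count in either sum. Gata2 had no count in any E3.5 MUT sum, Elf5 and Krt7 none in 3 of 4, and Cdx2 none in E4.5 MUT embryo 3. The 8 EPI markers summed to 2148 to 4008 CPM in EPI, 219 to 396 in PrE, 492 and 1177 in E4.5 MUT, 923 to 1699 in E3.5 WT/HET and 414 to 1024 in E3.5 MUT. At E3.5, 5 of the 8 were called lower in MUT by edgeR, Pou5f1, Fgf4, Gdf3, Tdgf1 and Utf1, where 2.98% of all genes were. Nanog had a mean of 796 CPM in E3.5 MUT and 645 in E3.5 WT/HET.

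As background, the kinases MST1 and MST2 with their scaffold SAV1 activate the kinases LATS1 and LATS2, which phosphorylate the co-activators YAP (Yap1) and TAZ (Wwtr1) and hold them in the cytoplasm. Angiomotins (Amot, Amotl1, Amotl2) and NF2, or Merlin, act upstream and bring LATS to cell junctions. Unphosphorylated YAP and TAZ enter the nucleus and bind the TEAD proteins on DNA. In the blastocyst this occurs in outer cells, where TEAD4 with YAP or TAZ switches on TE genes such as Cdx2, while in inner cells junctional AMOT and NF2 keep LATS active.

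Without OCT4, none of the members passed the test at either stage. At E3.5, 0 of 9 members tested were called by edgeR's quasi-likelihood test at an adjusted p of 0.05, where 6.18% of all genes tested were called. Of the 9, 3 had an unadjusted p under 0.05 (Amotl2, Lats2 and Wwtr1), as had 21.4% of all genes, and DESeq2 called 1, Amotl2, and 13.3% of all genes. At E4.5, 0 of 10 were called by edgeR between MUT and EPI, against 4.92% of all genes, with 3 at an unadjusted p under 0.05 (Amotl2, Wwtr1 and Amot) where 19% of all genes were, and 2 called by DESeq2 (Amotl2 and Wwtr1) where 16.7% of all genes were. Between MUT and PrE, 0 of 10 were called by edgeR, against 3.81% of all genes, with 0 at an unadjusted p under 0.05 (16.5% of all genes) and 0 called by DESeq2 (12.6%). The MUT and PrE sums of all 10 members overlapped, while those of 22.3% of the genes tested did not. In a model over whole embryos, the MUT change differed between the stages for 0 of 10 members by edgeR, against 5.46% of all genes, with 0 at an unadjusted p under 0.05 (20.4% of all genes) and 0 by DESeq2 (13.4%). Both E4.5 comparisons share the same 2 MUT embryos.

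**Figure D1:**
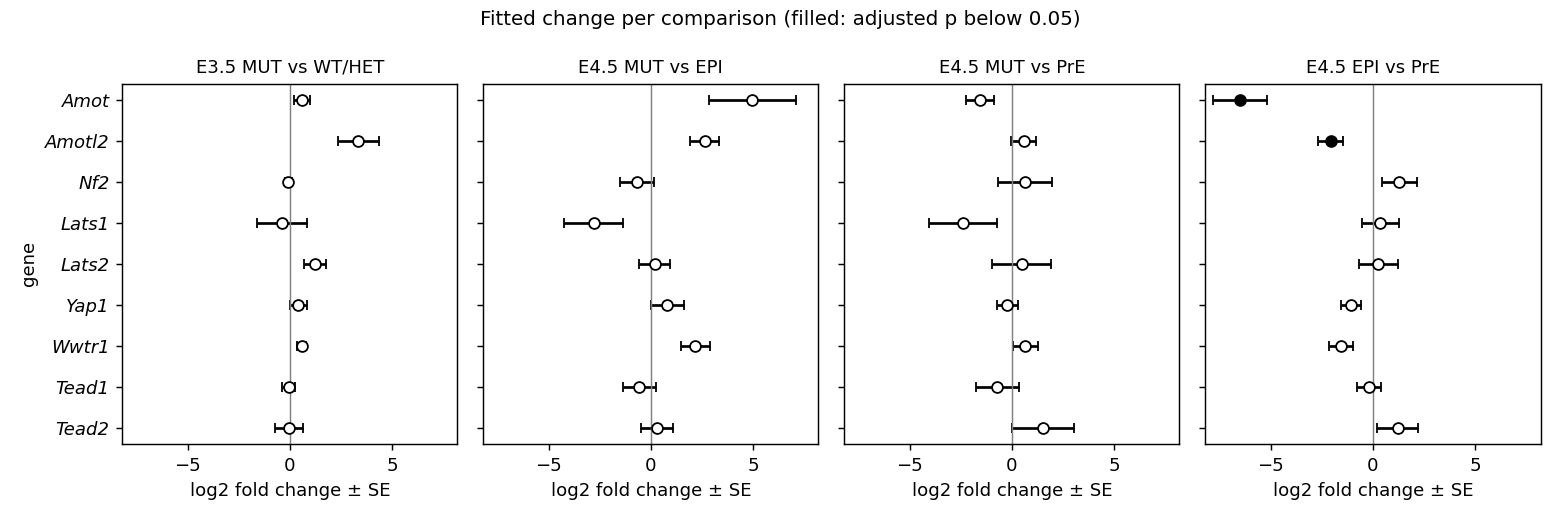
Fitted log2 fold change (x axis, log2 units, ± SE) of 9 members in each of 4 comparisons, with filled points at an adjusted p below 0.05. Amotl2 lay at 3.35 at E3.5 and 2.63 against EPI without being called, and the filled points are Amot and Amotl2 in EPI against PrE.

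Members were called between the lineages and between the stages. Between EPI and PrE, 2 of 9 members tested were called by edgeR, Amot and Amotl2, both lower in EPI, against 9.81% of all genes. From E3.5 WT/HET to EPI, 5 of 9 were called, against 31.9% of all genes. From E3.5 WT/HET to PrE, 4 of 9 were called, against 31.7% of all genes. From E3.5 MUT to E4.5 MUT, 1 of 10 was called, Amotl2, which was higher, against 6.76% of all genes and 3.08% that were higher, and that call was lost in 8 of 11 alternatives. The 3 comparisons with EPI or PrE share their sums with one another.

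Per length of transcript, TAZ was the most abundant member in the early ICM. Levels of different genes are compared here in FPKM, which divides CPM by the summed exon length. In E3.5 WT/HET, Wwtr1 stood at 16.8 ± 1.78 FPKM (SD, n = 7), followed by Nf2 at 8.15 ± 1.56 and Amot at 4.29 ± 1.63, and the ranges of these 3 over embryos did not overlap. Yap1 followed at 2.43 ± 1.2 FPKM and Tead1 at 1.64 ± 0.411, each overlapping its neighbour in the order. Lats2 (0.647 ± 0.363), Tead2 (0.642 ± 0.353), Lats1 (0.317 ± 0.302) and Amotl2 (0.255 ± 0.373) lay lower and overlapped in FPKM, and Amotl1 had no count. By mean, E3.5 MUT kept Wwtr1, Nf2, Amot and Yap1 as the first 4 in that order, with Amotl2 in the fifth place at 2.35 ± 1.51 FPKM (n = 4). There Nf2 (6.02 to 9.03 FPKM) and Amot (3.43 to 9.31) overlapped over embryos, as did Amot and Yap1.

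By E4.5 the order had changed in each lineage. PrE had Amotl2 (14.6 ± 8.48 FPKM), Amot (13.3 ± 8.24) and Wwtr1 (10.4 ± 5.77) on top, with ranges over the 6 embryos that overlapped. EPI had Nf2 (5.44 ± 3.61 FPKM) and Tead2 (4.66 ± 2.84) first and Amot last (0.148 ± 0.337), and its first 7 genes, down to Tead1 at 2.57 ± 1.12, overlapped. In E4.5 MUT, Amotl2 stood at 15.8 and 27.1 FPKM and Wwtr1 at 13.2 and 19.1 in the 2 embryos, above the other 8 members in each. With the longest transcript in place of summed exons, Wwtr1 stayed first in E3.5 WT/HET at 17.1 FPKM and Amotl2 first in PrE at 20.8.

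**Figure D2:**
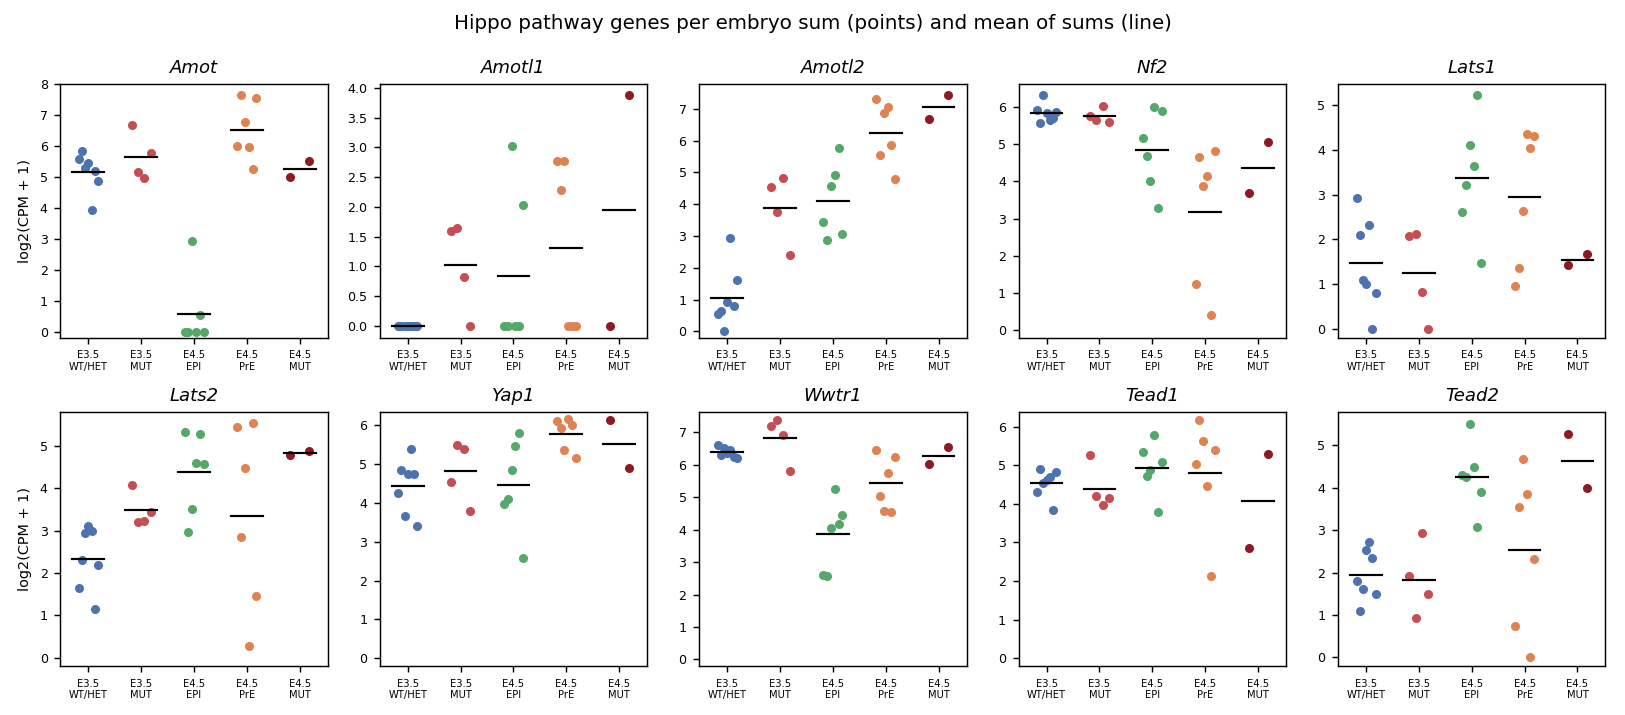
Level of each member as log2(CPM + 1) (y axis) in the 25 embryo sums, by class, with a line at the mean of the logged sums. Amot is at 0 in 4 of 6 EPI sums, with EPI embryo 4 highest at 6.54 CPM, and is above 0 in all sums of the other classes. Amotl2 is low in E3.5 WT/HET, and Wwtr1 is lowest in EPI.

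Amot and Amotl2 differed in where they were found: Amot was nearly absent from EPI, whereas Amotl2 was higher at E4.5 than at E3.5 in both lineages. Amot (ENSMUSG00000041688, chrX:145446425-145505181, minus strand, GRCm38) encodes the junction protein that binds LATS and YAP in inner cells. In E3.5 WT/HET its lowest, median and highest sums were 14.1, 37.4 and 56.3 CPM. The 4 E3.5 MUT embryos had 101, 34.6, 29.9 and 53.3 CPM. Of these, 3 fell inside the control range and embryo 10 lay above it. The fitted log2 fold change was 0.60 ± 0.38 (SE), with an adjusted p of 0.409 by edgeR.

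At E4.5 Amot was a gene of PrE and hardly found in EPI. The PrE sums had a lowest value of 36.6, a median of 85.5 and a highest of 196 CPM, whereas 4 of 6 EPI sums had no count and the others had 0.436 and 6.54 CPM. No EPI sum reached any PrE sum, which held for 4.73% of the genes tested. The log2 fold change of EPI against PrE was -6.49 ± 1.33 (SE), with an adjusted p of 0.00568 by edgeR, and Amot was lower in EPI in 6 of 6 embryos. With the 2 WT embryos alone the adjusted p was 0.207. EPI sums also lay below all E3.5 control sums, as for 12.2% of the genes tested, with a log2 fold change of -4.91 ± 1.25 and an adjusted p of 0.00732 by edgeR. PrE sums were higher than E3.5 controls by 1.56 ± 0.40 on the log2 scale, with an adjusted p of 0.00774 by edgeR and some overlap. Against WT embryos alone that change was 0.24, with an adjusted p of 0.688. Since EPI and PrE were assigned from these transcriptomes, their comparison is not independent of the values compared.

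The same held cell by cell. Amot had at least 1 count in 28 of 29 PrE cells and in 3 of 37 EPI cells, a share of 8.11% with an exact 95% binomial interval of 1.70 to 21.9% that covers counting error only. Thinned to 363819 counts a cell, these were 28 and 1 cells. The 80 of 81 counts of EPI embryo 4 came from a single cell. At E3.5, 48 of 58 WT/HET cells and 25 of 29 MUT cells had a count.

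For Amot the E4.5 MUT embryos lay above EPI and below PrE or low within it. Their 2 sums were 31 and 44.2 CPM, above every EPI sum, the first below every PrE sum and the second within the PrE range. Its log2 fold change was 4.96 ± 2.12 (SE) against EPI, with an adjusted p of 0.241, and -1.55 ± 0.69 against PrE, with an adjusted p of 0.306, both by edgeR. The call against EPI was gained without EPI embryo 4 (log2 fold change 8.44, adjusted p = 0.0435 by edgeR). It was also gained with cells weighted equally (log2 fold change 2.26, adjusted p = 0.00663 by limma). A count was found in 9 of the 19 MUT cells, and a single cell held 83.0% of the Amot counts of embryo 3. In all, 3 members (Amot, Amotl2 and Wwtr1) had MUT sums above every EPI sum and none below, where 15.0% of the genes tested lay above and 9.06% below.

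Amotl2 (ENSMUSG00000032531, chr9:102716672-102733418, plus strand) showed the largest fitted change without OCT4 among members tested at E3.5. It encodes an angiomotin that is itself a known target of YAP and TEAD. The 7 E3.5 WT/HET sums ran from 0 over a median of 0.724 to 6.70 CPM. The E3.5 MUT sums were 22.1, 12.6, 27.5 and 4.30 CPM in embryos 10, 12, 17 and 19. Of the controls, 6 of 7 lay below every MUT embryo, and HET embryo 16 lay above MUT embryo 19. On the log2 scale the fold change was 3.35 ± 1.00 (SE), with an adjusted p of 0.0653 by edgeR, so it was not called. It was called by DESeq2, with cells weighted equally, against WT controls alone and without embryo 16. The log2 fold changes there were 3.33, 1.875, 4.42 and 4.39, in that order. Over 17 alternatives adjusted p ran from 6.11e-04 to 0.151.

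More MUT cells than control cells held Amotl2 at E3.5. It had a count in 15 of 29 MUT cells and in 10 of 58 WT/HET cells, and 14 and 7 after thinning to equal depth. By embryo the share was 40 to 70% in MUT and 0 to 33.3% in WT/HET. At E3.5, 13 MUT cells held both Amot and Amotl2 and 12 Amot alone, while 9 WT/HET cells held both and 39 Amot alone. TE marker sums differed between the same groups: every MUT embryo had a higher sum than any control, as given above. Within MUT the 2 did not keep the same order. Embryo 17 was highest in both, but embryo 10, with 22.1 CPM of Amotl2, had the lowest TE marker sum, 1294 CPM. The part of TE markers in the Amotl2 difference was not tested.

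Amotl2 was higher at E4.5 than at E3.5 in every class. EPI sums had a lowest value of 6.35, a median of 16.2 and a highest of 53.0 CPM, PrE sums 26.8, 86.4 and 159 CPM, and the MUT sums were 101.1 and 170.6 CPM. Against E3.5 WT/HET the log2 fold change was 3.71 ± 0.99 (SE) in EPI and 5.76 ± 0.90 in PrE, with adjusted p of 0.00968 and 1.72e-04 by edgeR. No PrE sum overlapped with the E3.5 controls, and 7.89% of the genes tested lay wholly higher. Between E3.5 MUT and E4.5 MUT it was 2.96 ± 0.65, with an adjusted p of 0.0433, and this call was lost without any 1 of the 6 embryos, where adjusted p rose to between 0.0513 and 0.145, and with cells weighted equally and without shallow cells.

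Amotl2 also differed between the lineages. It was lower in EPI than in PrE by -2.07 ± 0.59 on the log2 scale, with an adjusted p of 0.0402 by edgeR, and the sums overlapped. The call was lost without embryo 1, 2, 4, 5 or 7, without the filter on low counts and with WT embryos alone, with adjusted p from 0.0509 to 0.557. Both MUT sums lay above every EPI sum, with a log2 fold change of 2.63 ± 0.73 (SE) and an adjusted p of 0.0730 by edgeR, and Amotl2 was called without EPI embryo 6 (adjusted p = 0.0342) and by DESeq2 (adjusted p = 0.00835). Against PrE the change was 0.58 ± 0.62, with an adjusted p of 0.760 and overlap. The MUT change at E4.5 minus that at E3.5 was -2.15 ± 1.34 on the log2 scale, with an adjusted p of 0.389 by edgeR.

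Among EPI cells 20 held Amotl2 alone, 3 held it with Amot, 0 held Amot alone and 14 held neither. In PrE 26 of 29 cells held both genes. Of the E4.5 MUT cells 7 held both, 2 Amot alone, 7 Amotl2 alone and 3 neither.

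**Figure D3:**
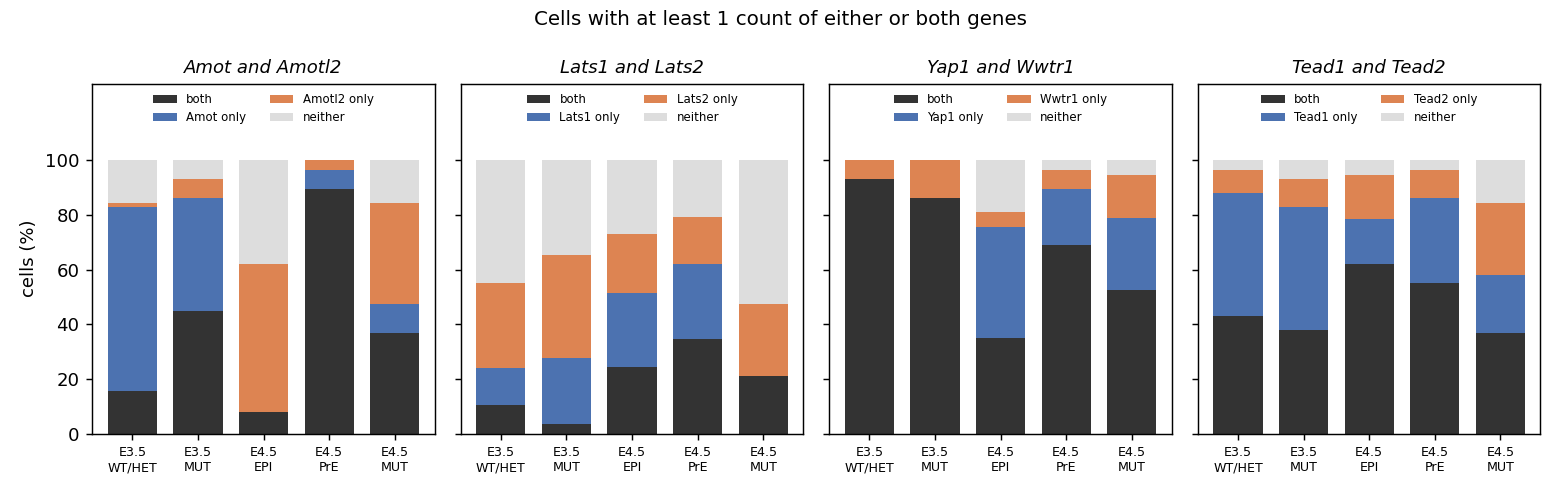
Share of cells (y axis, %) in each class with at least 1 count of both genes, of a single one or of neither, for 4 pairs of related genes. In EPI 3 of 37 cells hold Amot, all with Amotl2, and every E3.5 cell holds Wwtr1.

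Amotl1 (ENSMUSG00000013076, chr9:14541966-14645056, minus strand), the remaining angiomotin, was rare. It had 0 counts in the 58 E3.5 WT/HET cells, which allows up to 6.16% of cells with a count (exact 95% binomial, counting error over cells only) and sets no limit on cells that express it, and 51 counts in 3 of 29 E3.5 MUT cells. These 3 cells lay in 3 embryos, with 2.04, 2.12 and 0.775 CPM, and embryo 19 had none. The gene did not pass the filter at E3.5 and was not tested there. At E4.5 it had counts in 2 of 37 EPI, 3 of 29 PrE and 1 of 19 MUT cells, and no fold change is given.

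Nf2 (ENSMUSG00000009073, chr11:4765845-4849536, minus strand), which encodes Merlin, was present in all 58 E3.5 WT/HET cells and in 27 of 29 E3.5 MUT cells. Control sums ran from 46.4 over a median of 56.2 to 79.6 CPM, and MUT sums were 53.1, 49.6, 64.0 and 47.2 CPM. All 4 MUT embryos lay within the control range. The log2 fold change was -0.07 ± 0.18 (SE), with an adjusted p of 0.873 by edgeR.

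At E4.5 Nf2 was found in a smaller share of cells in each class. It had a count in 23 of 37 EPI, 14 of 29 PrE and 10 of 19 MUT cells. EPI sums had a lowest value of 8.72, a median of 29.9 and a highest of 63.6 CPM, PrE sums 0.336, 15.1 and 27 CPM, and the MUT sums were 11.8 and 32.2 CPM. Every PrE sum lay below every E3.5 control, as for 12.7% of the genes tested, by -2.03 ± 0.65 on the log2 scale with an adjusted p of 0.0272 by edgeR. That call was lost with WT embryos alone (adjusted p = 0.0832) and without control embryo 14 (adjusted p = 0.0562). EPI against PrE was 1.29 ± 0.85 (adjusted p = 0.439), MUT against EPI -0.68 ± 0.85 (adjusted p = 0.762) and MUT against PrE 0.65 ± 1.33 (adjusted p = 0.900), all by edgeR.

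Of the LATS kinases, which phosphorylate YAP and TAZ, 26 of 58 E3.5 WT/HET cells and 10 of 29 E3.5 MUT cells had a count of neither. Lats1 (ENSMUSG00000040021, chr10:7681214-7716460, plus strand) ran from 0 over a median of 1.14 to 6.56 CPM in E3.5 WT/HET, and was 3.20, 3.33, 0.775 and 0 CPM in the MUT embryos. The groups overlapped, with a log2 fold change of -0.37 ± 1.22 (SE) and an adjusted p of 0.909 by edgeR.

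Lats1 was found in 19 of 37 EPI and 18 of 29 PrE cells but 4 of 19 E4.5 MUT cells. The MUT sums were 1.68 and 2.18 CPM, while EPI sums had a lowest value of 1.78, a median of 9.87 and a highest of 36.2 CPM and PrE sums 0.951, 10.3 and 19.3 CPM. The MUT sum of embryo 3 lay below every EPI sum and that of embryo 8 near the lowest, and both were within the PrE range. In the fit the log2 fold change was -2.81 ± 1.44 (SE) against EPI and -2.40 ± 1.66 against PrE, with adjusted p of 0.328 and 0.545 by edgeR, and neither was called in any of 14 alternatives. EPI against PrE was 0.36 ± 0.92, with an adjusted p of 0.896.

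Lats2 (ENSMUSG00000021959, chr14:57689662-57758388, minus strand), also known as a YAP target, was the only member whose E3.5 groups did not overlap. E3.5 WT/HET sums ran from 1.21 over a median of 3.94 to 7.57 CPM, and MUT sums were 16, 8.17, 8.44 and 9.85 CPM. All 4 MUT embryos exceeded all 7 controls, which held for 3.43% of the genes tested. In the fit the log2 fold change was 1.24 ± 0.53 (SE), with an adjusted p of 0.194 by edgeR, and adjusted p ran from 0.0867 to 0.399 over 17 alternatives. The share of cells with a count was the same: 12 of 29 MUT and 24 of 58 WT/HET cells, 41.4% in each. Its counts often came from few cells, and a single cell held 38 to 70% of those of each MUT embryo.

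At E4.5 the classes overlapped for Lats2. EPI sums had a lowest value of 6.88, a median of 23.1 and a highest of 39.5 CPM, PrE sums 0.200, 13.9 and 45.7 CPM, and the MUT sums were 26.5 and 28.7 CPM. MUT lay within both ranges, with log2 fold changes of 0.18 ± 0.76 (SE) against EPI and 0.49 ± 1.44 against PrE and adjusted p of 0.949 and 0.939 by edgeR. EPI was higher than E3.5 WT/HET by 2.37 ± 0.56 on the log2 scale, with an adjusted p of 0.00443 by edgeR and some overlap, and was not called with cells weighted equally (adjusted p = 0.0566 by limma). EPI against PrE was 0.27 ± 0.94, with an adjusted p of 0.930, and the stage difference of the MUT change was -0.97 ± 0.90, with an adjusted p of 0.607. In the annotation used here 42.4% of the exon length of Lats2 is shared with Gm49361, a gene model that the count tables do not hold.

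**Figure D4:**
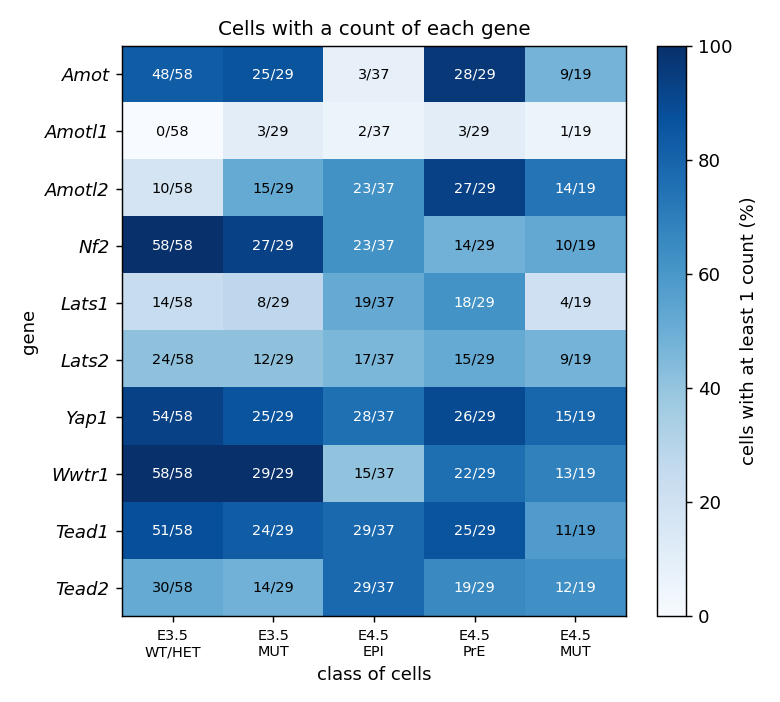
Cells with at least 1 count of each member out of the cells of each class, shaded by percent. Wwtr1 fills 58 of 58 and 29 of 29 cells at E3.5 and 15 of 37 in EPI, and Amotl1 is in 0 to 3 cells of any class.

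Wwtr1 (ENSMUSG00000027803, chr3:57455649-57575910, minus strand), which encodes TAZ, was found in every E3.5 cell, 58 of 58 WT/HET and 29 of 29 MUT. Control sums were tight, from 72.8 over a median of 81.5 to 95.2 CPM. The MUT sums were 145, 166, 120 and 54.9 CPM. Of the MUT embryos, 3 of 4 lay above all controls and embryo 19 below all of them. The log2 fold change was 0.58 ± 0.23 (SE), with an adjusted p of 0.170 by edgeR, and it was called without embryo 19 (adjusted p = 0.0133 by edgeR). Embryo 19 held 4 cells, the fewest of any E3.5 embryo.

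Wwtr1 was lower in EPI than in E3.5 WT/HET. EPI sums had a lowest value of 4.90, a median of 16.3 and a highest of 36.7 CPM. All lay below every E3.5 control, as for 12.2% of the genes tested, and 15 of 37 EPI cells had a count. Its log2 fold change against E3.5 WT/HET was -2.27 ± 0.41 (SE), with an adjusted p of 5.66e-04 by edgeR. PrE sums were 22.2, 42.3 and 86.8 CPM at lowest, median and highest, and 22 of 29 cells had a count. EPI against PrE was -1.55 ± 0.58, with an adjusted p of 0.122 by edgeR, and was called by DESeq2 (adjusted p = 0.0237) and with cells weighted equally (adjusted p = 0.0404 by limma). Cells with neither co-activator were 7 of 37 in EPI, 1 of 29 in PrE, 1 of 19 in E4.5 MUT and 0 at E3.5.

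In E4.5 MUT Wwtr1 stood at 64.5 and 91.1 CPM, above every EPI sum and within the PrE range, in 13 of 19 cells. On the log2 scale the fold change was 2.18 ± 0.72 (SE) against EPI and 0.66 ± 0.60 against PrE, with adjusted p of 0.118 and 0.698 by edgeR, the former called by DESeq2 (adjusted p = 0.0243). The stage difference of the MUT change was 0.58 ± 0.51, with an adjusted p of 0.580. TE marker sums in these 2 embryos were 9105 and 10220 CPM beside at most 380 in EPI. PrE marker sums were 316.7 and 300.3 CPM beside at most 25.15 in EPI. The part of either in the Wwtr1, Amotl2 and Amot levels was not tested.

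Yap1 (ENSMUSG00000053110, chr9:7931999-8004596, minus strand) was found in 54 of 58 E3.5 WT/HET and 25 of 29 E3.5 MUT cells. Control sums ran from 9.66 over a median of 25.7 to 40.9 CPM, and MUT sums were 22.4, 44.4, 41 and 12.9 CPM. The groups overlapped, with a log2 fold change of 0.41 ± 0.42 (SE) and an adjusted p of 0.643 by edgeR.

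In E4.5 controls Yap1 was higher in PrE than at E3.5. PrE sums were 34.4, 61.1 and 70.8 CPM at lowest, median and highest, and EPI sums 5.02, 22.1 and 54.9 CPM. PrE exceeded E3.5 WT/HET by 1.28 ± 0.35 on the log2 scale, with an adjusted p of 0.0108 by edgeR and overlap between the groups. EPI against PrE was -1.06 ± 0.50, with an adjusted p of 0.236. The MUT sums were 69.0 and 28.8 CPM, with log2 fold changes of 0.81 ± 0.80 against EPI (adjusted p = 0.674) and -0.21 ± 0.49 against PrE (adjusted p = 0.915), by edgeR. Yap1 was in 28 of 37 EPI, 26 of 29 PrE and 15 of 19 MUT cells.

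Tead1 (ENSMUSG00000055320, chr7:112679318-112906807, plus strand), which encodes a DNA-binding partner of YAP and TAZ, was not called in any comparison. E3.5 WT/HET sums ran from 13.4 over a median of 23.5 to 29.1 CPM, and MUT sums were 37.4, 17.3, 14.6 and 16.6 CPM. Embryo 10 lay above the controls and the others within them, with a log2 fold change of -0.06 ± 0.32 (SE) and an adjusted p of 0.95 by edgeR. At E4.5 the median was 30.6 CPM in EPI and 36.5 in PrE, and the MUT sums were 6.29 and 38.4 CPM. The log2 fold change was -0.56 ± 0.79 for MUT against EPI, -0.72 ± 1.04 for MUT against PrE and -0.18 ± 0.58 for EPI against PrE, with adjusted p of 0.799, 0.843 and 0.920 by edgeR.

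Tead2 (ENSMUSG00000030796, chr7:45215753-45233644, plus strand) was higher in EPI than in E3.5 WT/HET. E3.5 WT/HET sums ran from 1.13 over a median of 2.52 to 5.61 CPM and MUT sums were 2.76, 0.908, 6.63 and 1.80 CPM, with overlap, a log2 fold change of -0.03 ± 0.69 (SE) and an adjusted p of 0.990 by edgeR. EPI sums were 7.48, 18.3 and 44.7 CPM at lowest, median and highest, all above every E3.5 control, as for 7.27% of the genes tested. In the fit the log2 fold change from E3.5 WT/HET to EPI was 2.73 ± 0.55, with an adjusted p of 0.00138 by edgeR. PrE sums were 0, 7.36 and 24.5 CPM and the MUT sums 37.5 and 14.9 CPM. MUT against EPI was 0.29 ± 0.77 (adjusted p = 0.914), MUT against PrE 1.53 ± 1.51 (adjusted p = 0.729) and EPI against PrE 1.21 ± 1.00 (adjusted p = 0.564), by edgeR. Cells with a count were 30 of 58, 14 of 29, 29 of 37, 19 of 29 and 12 of 19 in E3.5 WT/HET, E3.5 MUT, EPI, PrE and E4.5 MUT.

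Of the TEAD genes that are not members, Tead4 had a higher mean than Tead1 and Tead2 per length in every class. Tead4, the TEAD needed for TE formation, stood at 8.56 ± 1.73 FPKM in E3.5 WT/HET (SD, n = 7) and 13.1 ± 3.34 in E3.5 MUT (n = 4). In CPM it was 31.6 ± 6.21 and 53.0 ± 12.1, with a log2 fold change of 0.76 ± 0.22 (SE) and an adjusted p of 0.0632 by edgeR, so it was not called. DESeq2 called it (adjusted p = 0.00996), as did edgeR without MUT embryo 19 (adjusted p = 0.0388), whereas with cells weighted equally the log2 fold change was -0.0068 (adjusted p = 0.993 by limma). At E4.5 it stood at 33.7 ± 13.6 CPM in EPI, 31 ± 21 in PrE and 59.7 ± 36.4 in MUT. Tead3 had no count in any E3.5 cell and was in 2 of 37 EPI, 3 of 29 PrE and 2 of 19 MUT cells.

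The RefSeq promoter windows of the members (GRCm38.p6, 250 bases before to 50 bases after the start) were searched on both strands for GGAATG, the core that TEAD proteins bind, and for ATGCAAAT, the octamer that OCT4 can bind. The table held 12 windows for 9 members and none for Tead1. The TEAD core was in the windows of Amotl2, Yap1 and Wwtr1 and in 1 of the 2 of Lats2, and in 14.7% of all 32851 windows, while the octamer was in none of the 12 and in 1.74% of all. Shown 5′ to 3′ on the strand of the gene, with the core in capitals, are the windows of Amotl2 (chr9:102717554-102717853, plus strand, core read on the opposite strand as CATTCC and starting 65 bases before the start), of Lats2 (chr14:57746074-57746373, minus strand, core at base 5 of the transcript) and of Wwtr1 (chr3:57575861-57576160, minus strand, core 136 bases before the start), the members with an unadjusted p under 0.05 at E3.5. The genes of Amotl2 and Lats2 extend farther upstream in the annotation, so their windows lie within the gene. A match of these letters is a description and not a binding site.
Amotl2: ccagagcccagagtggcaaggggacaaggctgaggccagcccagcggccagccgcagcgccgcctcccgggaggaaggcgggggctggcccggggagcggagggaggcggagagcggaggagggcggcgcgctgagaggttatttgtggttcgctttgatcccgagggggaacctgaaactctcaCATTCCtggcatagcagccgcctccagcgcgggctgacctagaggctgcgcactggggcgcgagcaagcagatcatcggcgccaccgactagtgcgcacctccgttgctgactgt
Lats2: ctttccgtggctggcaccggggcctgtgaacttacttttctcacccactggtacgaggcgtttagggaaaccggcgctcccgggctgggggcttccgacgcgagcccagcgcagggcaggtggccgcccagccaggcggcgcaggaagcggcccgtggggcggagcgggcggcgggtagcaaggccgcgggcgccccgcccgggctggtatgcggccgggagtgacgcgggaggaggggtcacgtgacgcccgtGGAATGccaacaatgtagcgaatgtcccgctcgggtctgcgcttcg
Wwtr1: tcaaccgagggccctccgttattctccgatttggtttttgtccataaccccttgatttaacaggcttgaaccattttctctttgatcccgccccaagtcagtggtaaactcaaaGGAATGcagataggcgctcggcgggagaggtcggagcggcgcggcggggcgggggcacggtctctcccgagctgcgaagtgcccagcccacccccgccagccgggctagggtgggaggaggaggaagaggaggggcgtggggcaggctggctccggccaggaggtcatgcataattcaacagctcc

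The rest of the pathway was described by 5 lists of other Hippo genes, each by its counts and median. At E3.5 the median log2 fold change of all genes tested was -0.02. Of 11 kinase core genes, 1 was called lower in MUT, Stk38, where 2.98% of all genes were, with a list median of -0.12. Stk38, which encodes a kinase related to LATS, went from 136 ± 32.7 CPM in WT/HET to 60.9 ± 25.4 in MUT (SD, n = 7 and 4), a log2 fold change of -1.14 ± 0.30 (SE) with an adjusted p of 0.0422 by edgeR, a call lost in 11 of 17 alternatives. Stk3 and Stk4, which encode MST2 and MST1, stood at 63.9 ± 24.7 and 21.9 ± 6.31 CPM in WT/HET and at 32.8 ± 29.3 and 14.4 ± 3.87 in MUT, and neither was called (adjusted p = 0.329 and 0.325 by edgeR), although Stk3 was with cells weighted equally (adjusted p = 0.0210 by limma). Sav1 stood at 1.72 ± 0.870 and 2.19 ± 2.12 CPM.

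Among 20 apical and junction genes tested at E3.5, 1 was called higher, Ajuba, where 3.20% of all genes were, and the list median was -0.07. Ajuba, which encodes a LIM protein that binds LATS and is also a YAP target, went from 3.93 ± 1.96 to 15.5 ± 6.77 CPM, a log2 fold change of 2 ± 0.49 (SE) with an adjusted p of 0.0319 by edgeR. Its call was lost in 6 of 17 alternatives (adjusted p from 0.0531 to 0.0879). Of 12 off-switches, as the list of phosphatase and STRIPAK genes is named here, 0 were called by edgeR. An unadjusted p under 0.05 was found for 3 (21.4% of all genes). DESeq2 called 2 (13.3% of all genes) and the fit with cells weighted equally 1 (11.2%).

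The list of TEAD partners and YAP regulators held the most calls at E3.5. Of 14 tested, 4 were higher in MUT (Itch, Csnk1e, Ywhaq and Sfn) and 1 lower (Ywhaz), where 3.20% and 2.98% of all genes were, and the list median was 0.49. The call of Ywhaq was lost in 12 of 17 alternatives (adjusted p from 0.0533 to 0.138) and that of Sfn in 3 (adjusted p from 0.0509 to 0.0834). Itch, an E3 ubiquitin ligase known to act on LATS1, went from 72.5 ± 18.4 to 231 ± 116 CPM, a log2 fold change of 1.70 ± 0.28 (SE) with an adjusted p of 0.00495 by edgeR. Csnk1e, a casein kinase that marks YAP for degradation, went from 95.9 ± 25 to 210 ± 44.3 CPM, or by 1.15 ± 0.23 with an adjusted p of 0.0111. Ywhaz, a 14-3-3 protein of the group that retains phosphorylated YAP in the cytoplasm, went from 1339 ± 76.9 to 964 ± 71.7 CPM, or by -0.45 ± 0.10 with an adjusted p of 0.0190, a call lost without the filter (0.0609), with WT embryos alone (0.0618) and without MUT embryo 17 (0.0547). Vgll4, a TEAD repressor, stood at 0.626 ± 0.752 and 2.21 ± 1.13 CPM and was not called.

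Of 11 YAP and TEAD targets tested at E3.5, 1 was higher in MUT (Ajuba) and 2 lower (Gadd45a and Nt5e), with a list median of -0.04. Of all genes, 3.20% were called higher and 2.98% lower. Gadd45a, a growth arrest gene, went from 8.35 ± 3.35 to 0.343 ± 0.631 CPM, with an adjusted p of 0.0321 by edgeR, a call lost in 10 of 17 alternatives. Nt5e, which encodes an ectonucleotidase, had 4.56 ± 3.76 CPM in WT/HET and no count in MUT, with an adjusted p of 0.0296 by edgeR. Cyr61, a common readout of YAP, stood at 41.6 ± 13.7 and 77.4 ± 70.8 CPM and was not called (adjusted p = 0.408). The list holds Amotl2 and Lats2 too.

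**Figure D5:**
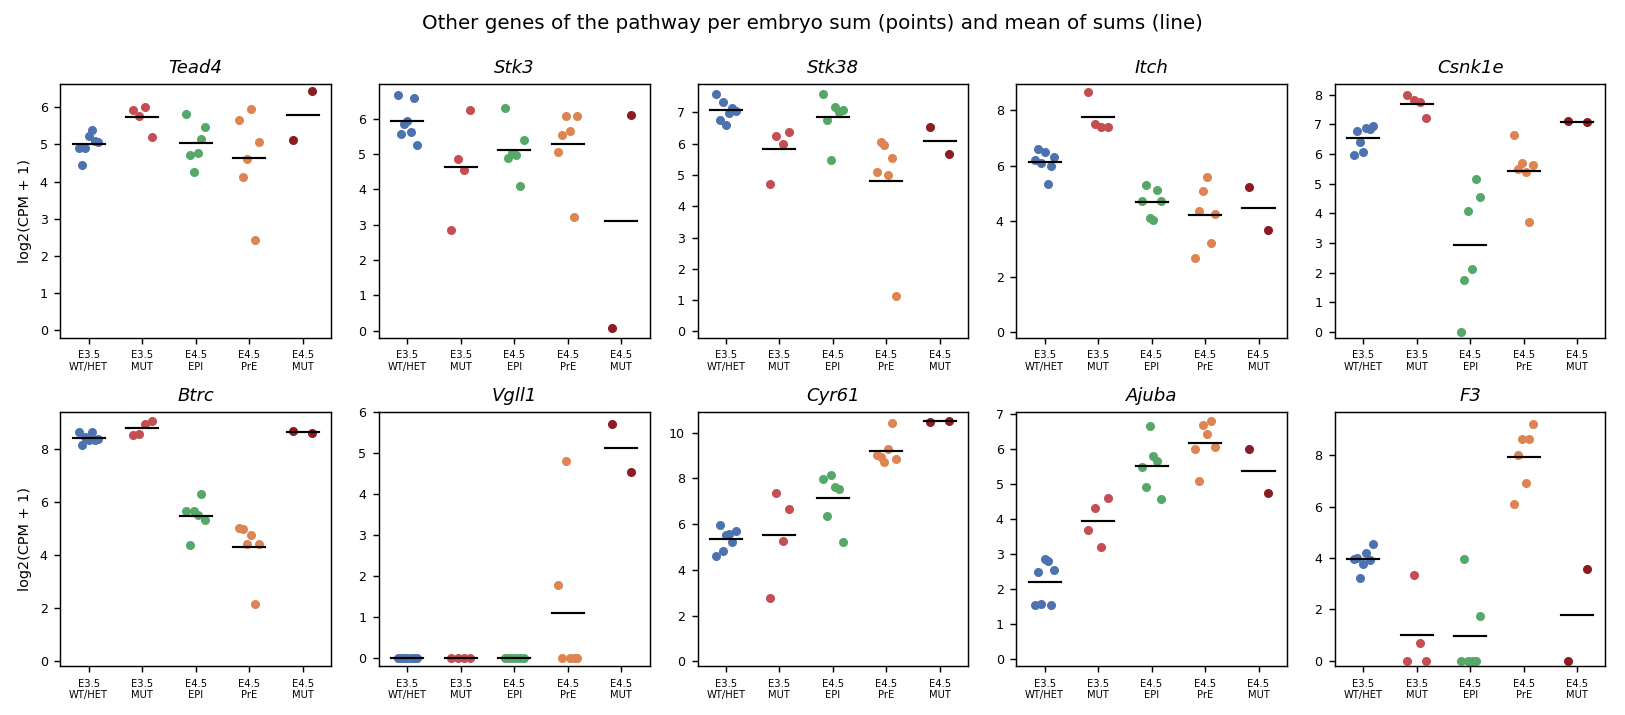
Level of 10 other genes of the pathway as log2(CPM + 1) (y axis) in the 25 embryo sums, by class, with a line at the mean of the logged sums. Itch and Csnk1e are higher in E3.5 MUT than in E3.5 WT/HET, and Btrc is high at E3.5 and in E4.5 MUT and low in EPI and PrE.

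At E4.5 few other pathway genes were called. Between MUT and EPI, 0 of 11 kinase core and 0 of 21 apical and junction genes were called by edgeR, with 0 and 2 at an unadjusted p under 0.05, 0 and 2 by DESeq2, and 0 and 1 with cells weighted equally, which called 11.4% of all genes. Of 12 off-switches 1 was higher in MUT, Stk24, a STRIPAK kinase, at 119 ± 30.4 CPM in MUT (SD, n = 2) and 23.2 ± 8.61 in EPI (n = 6), with an adjusted p of 0.0278 by edgeR, a call lost in 4 of 14 alternatives, without either MUT embryo, without EPI embryo 7 and with WT embryos alone (adjusted p from 0.0551 to 0.230). Of 16 TEAD partners and YAP regulators 2 were higher, Btrc and Vgll1, and 1 lower, Ywhae, whose call was lost in 10 of 14 alternatives (adjusted p from 0.0542 to 0.246), either MUT embryo left out among them, and of 16 targets 1 was higher, Cyr61. Across all genes 2.30% were higher and 2.62% lower.

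Btrc, which encodes the ubiquitin ligase subunit that recognises phosphorylated YAP, stood at 384 and 412 CPM in the MUT embryos, 46.3 ± 18.6 in EPI and 21.9 ± 10.2 in PrE. In the fit the log2 fold change was 3.05 ± 0.38 (SE) against EPI and 4.15 ± 0.56 against PrE, with adjusted p of 0.00184 and 0.00395 by edgeR. Vgll1, a TEAD co-factor, had 22.2 and 51.8 CPM in MUT and no count in EPI. It also had no count in any E3.5 sum, MUT included, and in PrE it had 27.2 CPM in embryo 4, 2.45 CPM in embryo 1 and no count in the other 4. Cyr61 stood at 1402 and 1465 CPM in MUT and 173 ± 97.2 in EPI, a log2 fold change of 3.00 ± 0.55 with an adjusted p of 0.0154 by edgeR, a call lost without either MUT embryo (adjusted p = 0.0759 and 0.0715). In PrE it stood at 647 ± 366 CPM.

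Between MUT and PrE, 2 of 17 TEAD partners and YAP regulators were higher in MUT, Btrc and Sfn, against 1.74% of all genes, and 0 of 11 kinase core, 0 of 21 apical and junction genes, 0 of 12 off-switches and 0 of 18 targets were called by edgeR. The call of Sfn was lost in 6 of 14 alternatives (adjusted p from 0.0586 to 0.166), either MUT embryo left out among them, and that of Btrc with WT embryos alone, against PrE (adjusted p = 0.175) as against EPI (adjusted p = 0.0744). For the last 4 lists an unadjusted p under 0.05 was found for 0, 2, 4 and 8 genes (16.5% of all genes). DESeq2 called 0, 2, 2 and 6 (12.6% of all genes), and the fit with cells weighted equally 0, 0, 2 and 2 (8.96%). Over both stages the MUT change differed by an interaction test for 1 of 17 TEAD partners and YAP regulators, Btrc. The difference was 2.89 on the log2 scale (adjusted p = 1.99e-05 by edgeR). It also differed for 1 of 22 apical and junction genes, Fat1 (1.96, adjusted p = 0.0424 by edgeR). Of 11 kinase core genes, 12 off-switches and 20 targets 0 were called, against 5.46% of all genes. Of these, 2, 6 and 4 had an unadjusted p under 0.05 (20.4% of all genes), and DESeq2 called 0, 6 and 2 (13.4%). The call of Fat1 was lost in 17 of 25 alternatives, with adjusted p from 0.051 to 0.498, and that of Btrc in none.

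Between EPI and PrE, 3 of 11 targets tested were lower in EPI, F3, Cyr61 and Amotl2, where 5.20% of all genes were. F3, which encodes tissue factor, stood at 308 ± 199 CPM in PrE and had no count in 4 of 6 EPI sums, with an adjusted p of 0.00483 by edgeR. With WT embryos alone the calls of F3 (adjusted p = 0.148) and Cyr61 (adjusted p = 0.207) were lost. Rassf1, a scaffold of the MST kinases, was lower in EPI at 15.9 ± 9.82 CPM against 60.7 ± 37.6 in PrE, with an adjusted p of 0.0311 by edgeR that rose to between 0.0516 and 0.207 in 7 of 13 alternatives (without embryo 4, 5, 6 or 7, with cells weighted equally, with WT embryos alone and without shallow cells), and was the only one of 20 apical and junction genes called. Of 13 TEAD partners and YAP regulators 3 were higher in EPI, the 14-3-3 genes Ywhaq, Ywhae and Ywhag, where 4.61% of all genes were, and 1 was lower, Ywhab, which was not called with the embryo as a block (adjusted p = 0.0692) and lost its call in 7 of 13 alternatives. The call of Ywhag was lost in 9 of 13 alternatives (adjusted p from 0.0684 to 0.536), the embryo as a block (adjusted p = 0.0707) among them. With WT embryos alone Ywhaq (adjusted p = 0.207) and Ywhae (adjusted p = 0.212) were not called, and Ywhae was not called without embryo 2 either (adjusted p = 0.05002). Of 9 kinase core genes and 12 off-switches 0 were called by edgeR, with 2 and 0 at an unadjusted p under 0.05 (21.6% of all genes) and 1 and 0 called by DESeq2 (17.1%).

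Between E3.5 WT/HET and EPI, called genes lay in each of the 5 lists, where 15.5% of all genes were higher in EPI and 16.4% lower. Of 13 TEAD partners and YAP regulators 3 were higher and 7 lower, among them Btrc (log2 fold change -2.87 ± 0.24, SE) and the 14-3-3 genes Ywhab (-1.17 ± 0.11) and Ywhag (-1.08 ± 0.12). Of 20 apical and junction genes 3 were higher and 4 lower. Of these, Ajuba was higher by 3.69 ± 0.47, and Fat1, an atypical cadherin, and Cdh1, which encodes E-cadherin, were lower at -1.99 ± 0.40 and -1.03 ± 0.23. The kinase core had 4 of 11 genes lower and 0 higher, among them Taok1 (-1.27 ± 0.24), Mob1a (-1.73 ± 0.45) and Stk38l (-1.46 ± 0.39). Of 12 off-switches 1 was higher, Ppp1ca, a phosphatase subunit (0.95 ± 0.13), and 2 were lower, Stk24 (-3.31 ± 0.30) and Mob4 (-1.20 ± 0.38). Of 10 targets 4 were higher and 0 lower, among them Ajuba, Lats2 and Cyr61 (2.07 ± 0.40). Adjusted p of the genes named ran from 8.49e-07 for Btrc to 0.0264 for Mob4 by edgeR, and besides Lats2, as given above, the call of Mob4 was lost, in 3 of 19 alternatives (adjusted p from 0.0508 to 0.0773).

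Between E3.5 WT/HET and PrE, 14.8% of all genes were higher in PrE and 16.9% lower. Of 13 TEAD partners and YAP regulators 0 were higher and 6 lower, among them Btrc (log2 fold change -3.95 ± 0.37, SE), Ywhag (-1.77 ± 0.16) and Sfn (-5.25 ± 0.64). Of 19 apical and junction genes 3 were higher and 4 lower, with Ajuba at 4.27 ± 0.42, Rassf1 at 2.34 ± 0.45 and Fat1 at -3.43 ± 0.75. The kinase core had 4 of 11 genes lower and 0 higher, among them Stk38l (-2.70 ± 0.37), Taok1 (-1.30 ± 0.31) and Stk38 (-1.79 ± 0.53). Of 12 off-switches 3 were higher and 3 lower, with Ppp1ca at 0.94 ± 0.11, Stk24 at -2.84 ± 0.29 and Mob4 at -1.87 ± 0.34. Of 11 targets 4 were higher and 0 lower, among them Cyr61 (3.94 ± 0.32), Ajuba and F3 (4.35 ± 0.44). Adjusted p of the genes named ran from 4.16e-07 for Cyr61 to 0.0183 for Stk38 by edgeR. With WT embryos alone the calls of Taok1 (adjusted p = 0.0790), Fat1 (0.0986) and Mob4 (0.0704) were lost. Taok1, Stk38l and Mob1b were lower in both lineages, and Mob1b lost its call in 4 of 19 alternatives for EPI and 6 of 19 for PrE (adjusted p at most 0.0959).

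Between E3.5 MUT and E4.5 MUT fewer pathway genes were called, as were fewer of all genes (6.76%). Of 16 TEAD partners and YAP regulators 1 was higher at E4.5, Vgll1, and 3 lower, Sfn, Ywhag and Itch. Of 12 targets 2 were higher, Amotl2 and Cyr61, of 12 off-switches 2 lower, Strn3 and Stk24, and of 11 kinase core genes 1 lower, Mob1a. Of 20 apical and junction genes 0 were called by edgeR, with 2 at an unadjusted p under 0.05 (27.5% of all genes), 2 called by DESeq2 (24.1%) and 3 with cells weighted equally (17.7%). Over 11 alternatives the call was lost in 8 for Mob1a, 7 for Stk24, 5 each for Strn3, Ywhag, Itch and Cyr61 and 3 for Sfn.

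Over the 25 sums, 3 genes most like the member of each role with the highest mean FPKM were named by Pearson correlation of log2 CPM, among 6005 or 6006 genes with a mean of at least 20 CPM. For Amotl2 these were Bcl2l1 (r = 0.859), Cited2 (0.850) and Ajuba (0.845). Wwtr1 was most like Wars2 (0.886), Mon1a (0.876) and Tmem87a (0.866), Tead2 most like Mea1 (0.863), Flot2 (0.817) and Urod (0.802), and Lats2 most like Orc1 (0.807), Ctnnal1 (0.730) and Hyal2 (0.712). Among pairs of members, r was highest for Amot and Wwtr1 at 0.696 and lowest for Amotl2 and Nf2 at -0.58. These values describe sums that share stage, plate and lineage and in part the embryo.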

How the data were processed

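Single ICM cells were profiled by Smart-seq2 with read pairs of 125 bases. The authors aligned reads with STAR to the mouse genome (GRCm38, mm10) and deposited raw counts per Ensembl gene from HTSeq, 1 table per cell. Lines that name no gene were left out (no feature 4.72%, ambiguous 8.65%, not unique 32.3% of the table totals). Whether counting used strand is not given in the sources used here, so Yap1 and Tead2, whose exons overlap Gm20416 and Cd37 over 1.25% and 0.27% of their length, could hold or lose a few reads. Genotype, stage and lineage came from the labels. Embryo numbers came from the study's sample table, joined to those labels, and the embryo sums rest on that join, which remains to be checked. The members and gene lists were chosen with earlier results of these data known.

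Counts were summed per embryo (E4.5 controls by lineage, whole embryos for the interaction) and fitted with edgeR 4.0.16 in R 4.3.3 (TMM, filterByExpr, quasi-likelihood test, two-sided), with Benjamini-Hochberg adjustment over all genes tested and a threshold of 0.05. The comparisons share groups. Alternatives were DESeq2 1.42.0, DESeq2 size factors in edgeR, no filter, cells weighted equally (limma 3.58.1), WT embryos as the only controls, each embryo left out and embryo as a block. Leaving out the 9 cells under 0.5 of the median depth was chosen after seeing the data. EPI and PrE sums of an embryo come from the same animal and are pairs, with correlations of their deviations from 0.0099 to 0.0958. A cell was counted as holding a gene from 1 count. Intervals cover counting error only. FPKM used summed exon length and total gene counts without the TMM factor, and likeness log2 CPM with a prior count of 2. Named besides the 10 members were Pou5f1, Tead3, Tead4, Stk3, Stk4, Sav1 and Vgll4, and in each list the called genes with the 3 smallest adjusted p. Others (Ywhaq, Sfn and uncalled Cyr61 at E3.5, Ywhag between EPI and PrE, Mob1b, and Itch between the MUT stages) were chosen after their values were seen. The fits were tested on simulated data.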

Additional observations from a re-analysis of the deposited data

Results flagged for a closer look

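Of 39 groups of 4 to 7 embryos tested for a member by Dixon's test at 95%, 5 had an embryo far from the others, where chance gives about 5%. The highest E4.5 EPI sum of Amot was 6.54 CPM in embryo 4, where 80 of 81 counts came from 1 cell. Embryo 4 also had the highest EPI sum of Tead2, at 44.7 CPM. Among E3.5 WT/HET embryos, Amotl2 reached 6.70 CPM in HET embryo 16, where 68 of 74 counts came from 1 cell, and Nf2 reached 79.6 CPM in WT embryo 14. Among E3.5 MUT embryos, Tead1 reached 37.4 CPM in embryo 10.

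By the interaction test of edgeR over whole embryos, the change in MUT differed between the stages for 2 other genes of the pathway. They were 1 of 17 TEAD partners and YAP regulators and 1 of 22 apical and junction genes. No gene of the other Hippo lists was called, where 5.46% of all genes were. For Btrc the log2 change at E4.5 minus that at E3.5 was 2.89, with an adjusted p of 1.99e-05. For Fat1 it was 1.96, with an adjusted p of 0.0424, and the call was lost in 17 of 25 alternatives, with adjusted p from 0.051 to 0.498.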

How the results depend on the processing

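E4.5 MUT rests on 2 embryos, and stage cannot be told apart from plate. The cause of the differences between settings was not tested. Of 1836 fitted fold changes over all alternatives, 1599 kept direction and side of the threshold. At E3.5 MUT against WT/HET, 1 member was called by DESeq2, with cells weighted equally and with WT controls alone, and 0 to 1 with an embryo left out. For MUT against EPI it was 2 by DESeq2, 1 with cells weighted equally and 0 to 1 with an embryo left out. For EPI against PrE it was 3 by DESeq2 and with cells weighted equally (Amot, Amotl2 and Wwtr1), 1 without a filter, 0 with WT embryos alone and 1 to 2 with an embryo left out. Embryo as a replicate block called 2 members there, Amot and Amotl2, and changed no member's call. Of the other pathway genes named, the block changed the calls of Ywhab and Ywhag. Genes without a count in a group, such as Nt5e and Vgll1, were not followed over the alternatives. For PrE against E3.5 WT/HET it was 7 by DESeq2, 2 with WT embryos alone and 3 to 5 with an embryo left out. For E4.5 MUT against E3.5 MUT it was 3 by DESeq2, 2 with cells weighted equally (Nf2 and Wwtr1, both lower, and not Amotl2), 0 without shallow cells and 0 to 0 with an embryo left out. Of all genes, DESeq2 called 13.3% at E3.5, 16.7% for MUT against EPI, 17.1% for EPI against PrE and 24.1% between the MUT stages. For PrE against E3.5 WT/HET it called 5273 genes, where edgeR called 3420. Cells weighted equally called 11.2% at E3.5, 11.4% for MUT against EPI and 17.7% between the MUT stages.

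Over all genes, calls ran from 435 to 1834 at E3.5, 48 to 1949 for MUT against EPI, 27 to 1421 for MUT against PrE, 3 to 2168 for EPI against PrE, 3026 to 5793 for EPI and 2894 to 5273 for PrE against E3.5, 33 to 3064 between the MUT stages and 470 to 1969 for the interaction. Cells weighted equally moved the median of all genes at E3.5 from -0.02 to -0.23 and the share of calls that were higher from 51.7% to 31.4%.

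These log2 fold changes turned direction, none of them called. With WT embryos alone Tead2 was 0.38 at E3.5, Lats2 -0.19 and Yap1 -0.052 against EPI, and Tead1 0.86 for MUT against PrE and 1.46 for EPI against PrE. With cells weighted equally Tead4 was -0.0068 at E3.5, Lats2 -0.095 and Tead2 -0.25 against EPI, Amotl2 -0.75 and Lats2 -0.41 against PrE, and Lats1 -0.43 and Lats2 -0.32 for EPI against PrE. For EPI against PrE, Tead1 was 0.14 with the replicate block and 0.041 without shallow cells. With an embryo left out at E3.5, Lats1 ran from -0.82 to 0.11, Nf2 from -0.18 to 0.0086, Tead1 from -0.47 to 0.080 and Tead2 from -0.76 to 0.27. Against EPI, Lats2 ran from -0.0070 to 0.41, Tead1 from -2.41 to 0.23 and Tead2 from -0.49 to 0.81. Against PrE, Nf2 ran from -0.26 to 1.27, Yap1 from -0.89 to 0.28 and Tead1 from -2.56 to 0.14. For EPI against PrE, Lats1 ran from -0.13 to 0.85 and Tead1 from -0.51 to 0.20.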
